A study of Mus musculus with 8 samples.

Results

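The comparison described here is that of a mouse trachea without Wls in its epithelium against control tracheas, across every gene of the trachea count table. It rests on 3 of the 8 libraries of the series, all from whole tracheas dissected at E13.5, a stage at which tracheal cartilage begins to form. The single mutant library came from Wls flox/flox embryos carrying ShhCre, a Cre recombinase driven by the Shh locus, which is active in the airway epithelium. The 2 control libraries came from Wls flox/flox tracheas for which no Cre is listed, so the floxed alleles were present in all 3 libraries. Cre is thus listed for the mutant alone. Any effect of the Cre allele on Shh, on genes near it or on hedgehog signalling cannot be told apart from that of Wls loss. The other 5 libraries are cells labelled chondroblasts, sorted at the same age from Bmp4flox/flox tracheas carrying γSMAeGFP, 2 of them with Foxg1Cre and 3 without. The table lists 23478 genes, of which 15815 had enough counts to be tested and 13199 reached a mean of 1 on the log2 scale of CPM, the count of a gene scaled to the size of its library.

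Wls is the membrane protein that carries lipid-bearing Wnt ligands to the cell surface, so a cell without it makes Wnt proteins but releases little of them. In the developing trachea the epithelium faces a mesenchyme that forms cartilage on the ventral and lateral side and the trachealis, a band of smooth muscle, on the dorsal side. Wnt ligands from the epithelium signal to this mesenchyme, and bone morphogenetic proteins (BMPs) made there act on the future cartilage, whose cells are specified by Sox9. The comparison addresses which genes of the whole trachea depend on Wnt release from the epithelium.

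The 3 libraries held 24596836 counts for the mutant and 27237573 and 31399982 counts for the controls. The labels do not say whether a library is 1 embryo or a pool. Xist, transcribed from the inactive X, and Y-linked genes had counts in all 3 libraries (values below). Each library thus held RNA of both sexes, as a pool of embryos would. The p-values speak only to how these libraries vary, and that variation could be technical. The design text says that earlier data were joined to these, without naming the libraries concerned, so any difference in preparation between mutant and controls cannot be told apart from the genotype. Because the mutant had 1 library, each difference was read in 2 ways. The edgeR quasi-likelihood test assumed that the mutant varied like the controls and took most of its spread from all genes together. A rule of size, with no test, required a distance of at least 1 log2 unit from the control mean, with the mutant outside both controls by a gap wider than that between them.

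By edgeR, 378 genes fell (2.39% of those tested) and 298 rose (1.88%) at an adjusted p below 0.05. These shares over all genes are the background for every edgeR count of a list or family below. By the rule of size 157 genes were lower (1.19% of the genes above the floor) and 118 were higher (0.894%). Both rules together held for 124 lower and 102 higher genes. At least a 2-fold difference was found for 70 genes between the controls, for 272 genes between the mutant and control 1 and for 425 genes between the mutant and control 2. The median absolute difference between the controls was 0.163 log2 units. Between the mutant and control 1 it was 0.157, and between the mutant and control 2 it was 0.232. That of the mutant from the control mean was 0.18, which is not a like measure because a mean of 2 libraries varies less.

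**Figure D1:**
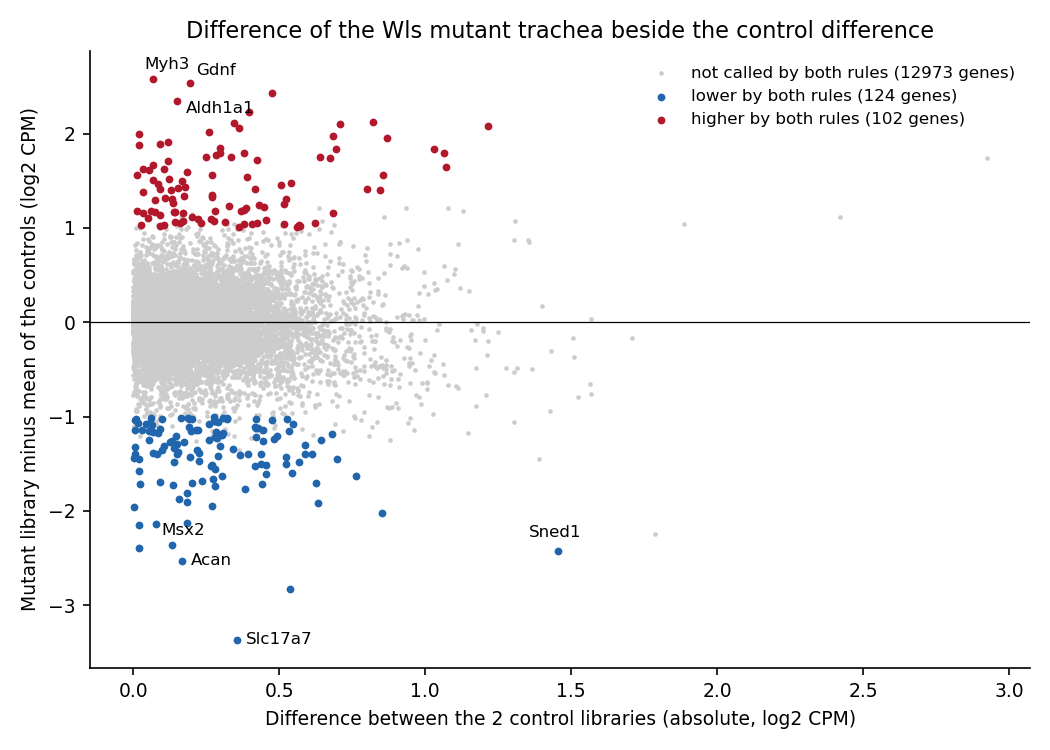
Each point is 1 of the 13199 genes above the expression floor, with the absolute difference between the 2 control libraries on the x axis and the mutant library minus the control mean on the y axis, both in log2 CPM. The 124 genes lower and 102 genes higher by both rules are coloured, and most of them lie where the controls differ by less than 0.5. Sned1, by contrast, lies far to the right.

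Wls itself, on chromosome 3 (GRCm38, 159839672 to 159938664), was at 65.9 CPM in the mutant library and at 153.8 and 145.0 CPM in the controls. Its log2 fold change was -1.19 ± 0.18 (SE, edgeR adjusted p = 2.2e-07). The remaining counts include those of all cells outside the Shh lineage, and the labels do not say which exons are removed. In the 3 control libraries of sorted Epcam-negative cells, Wls was at 201.8, 135.8 and 161.4 CPM. Those libraries are of another kind of sample, and in which cells of the trachea Wls fell was not tested. Shh, the gene whose locus drives the Cre, was at 24.56 CPM in the mutant and at 20.1 and 19.3 CPM in the controls, a difference of 0.31 ± 0.20 that did not pass the test (adjusted p = 0.50).

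Cartilage matrix genes were, by number, the list with the most falls in edgeR. Of 24 tested members of this list, 12 fell and 1 rose, and the median log2 fold change was -1.04, beside -0.01 over all genes tested. DESeq2 also called 13 members. The members together summed to 1552 CPM in the mutant and to 3203 and 3285 CPM in the controls. In whole tissue, fewer cells of a type and less RNA per cell cannot be told apart, here and in every result below.

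The collagens of the cartilage fibril fell together. Col2a1, the main collagen of cartilage (chromosome 15, 97975602 to 98004695), was at 195.9 CPM in the mutant and at 637.4 and 524.3 CPM in the controls (log2 fold change -1.57 ± 0.22, edgeR adjusted p = 7.2e-09). The mutant value lay far below both controls. The 3 chains of collagen IX, which decorates the type II fibril, followed: Col9a1 fell by 1.64, Col9a2 by 1.15 and Col9a3 by 1.75 log2 units. Col11a2, a chain of the fibril core, was at 9.90 CPM in the mutant and at 46.5 and 40.9 CPM in the controls (-2.15 ± 0.21, adjusted p = 1.8e-16). Its partner chain Col11a1, which other mesenchyme also makes, was at 145 CPM against 212 and 195 CPM and did not pass (adjusted p = 0.12). Per kilobase of exon, Col9a2 was at 38.7 RPKM, which is CPM divided by exon length in kilobases, in the mutant and at 97.6 and 72.9 RPKM in the controls, and Col2a1 was at 21.2, 69.0 and 56.7 RPKM.

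Proteoglycans and matrix adaptors of cartilage were lower as well. Acan, which encodes aggrecan, the large proteoglycan that holds water in cartilage (chromosome 7, 79053483 to 79115099), was at 2.22 CPM in the mutant and at 13.9 and 12.4 CPM in the controls (log2 fold change -2.57 ± 0.31, edgeR adjusted p = 8.2e-12). Matn4, a matrilin that links matrix fibrils, was at 46.9 CPM against 175 and 153.9 CPM (-1.82 ± 0.19). Susd5, a hyaluronan-binding protein, was at 6.86 CPM against 29.4 and 24.3 CPM (-1.97 ± 0.23). For these 3 genes the controls lay close together and the mutant stood well apart. Prelp fell by 1.16 and Wwp2, a ubiquitin ligase gene that hosts a cartilage microRNA, by 1.48. Vcan, which encodes versican of loose mesenchyme, fell by 0.72 but lost its call with upper quartile scaling (adjusted p = 0.090). The link protein gene Hapln1 was at 9.40 CPM in the mutant, between its controls at 9.96 and 6.49 CPM. Fmod, a small proteoglycan of fibrous tissue, was the member that rose, from 44.2 and 44.5 CPM in the controls to 88.7 CPM (0.99 ± 0.17, adjusted p = 4.0e-06). Matn1, Comp and Col10a1, genes of more mature cartilage, were close to 0 in all 3 libraries.

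Several regulators of chondrocytes fell too. Sox9, the factor that specifies chondrocytes (chromosome 11, 112782224 to 112787760), was at 75.6 CPM in the mutant and at 193.5 and 171.7 CPM in the controls (log2 fold change -1.28 ± 0.19, edgeR adjusted p = 3.4e-08). Its co-factors Sox5 and Sox6 fell by 0.86 and 1.03. Sp7, best known from bone-forming cells, was at 1.60 CPM against 5.54 and 5.20 CPM (-1.75 ± 0.40), and DESeq2 did not call it (adjusted p = 0.053). Runx2 was at 4.11 CPM in the mutant and at 2.92 and 4.11 CPM in the controls. Of 16 tested regulators, 5 fell and 1 rose, Foxa2, which at this age marks the epithelium.

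**Figure D2:**
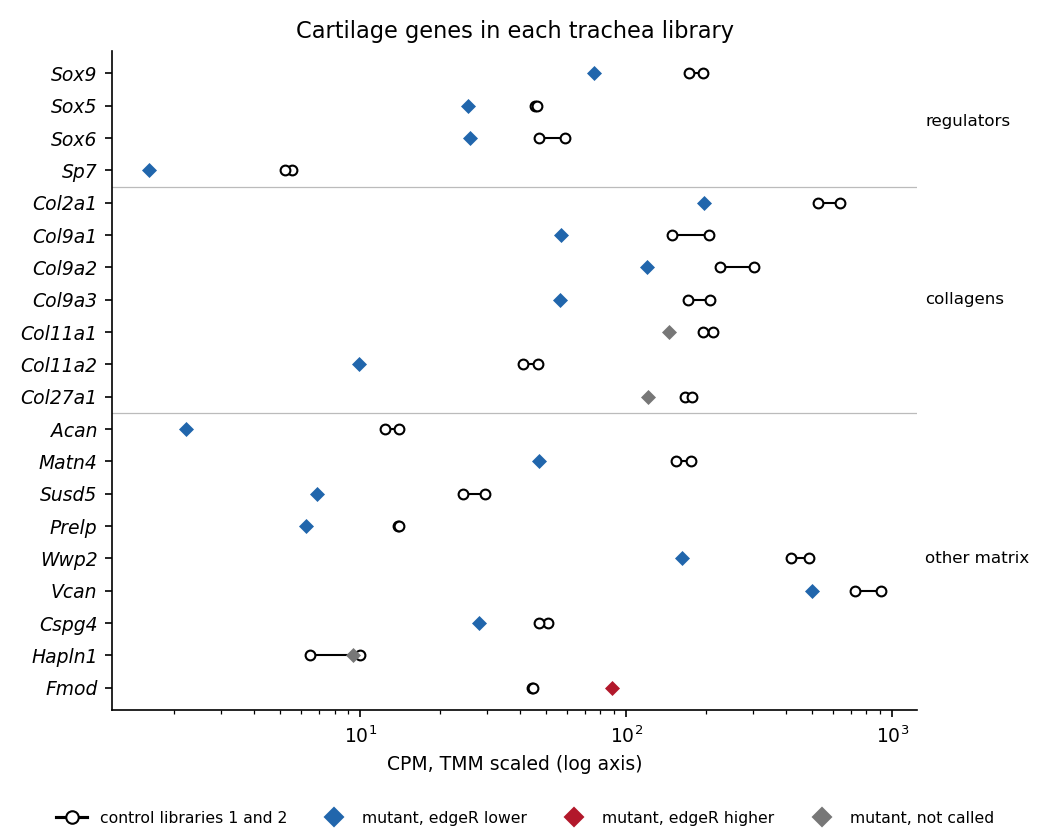
CPM on a log axis for 20 cartilage genes in the mutant library (diamonds, coloured by the edgeR call) and the 2 control libraries (open circles joined by a line). The mutant lies to the left of both controls for Col2a1, Acan and Sox9, inside the control range for Hapln1 and to the right for Fmod.

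Genes that build, sulfate or trim sugar chains were looked at after these values were seen. The group covers chondroitin, heparan sulfate and other chains, not those of cartilage proteoglycans alone. Of 30 tested genes of this group, 6 fell and none rose by edgeR. Chst3, a chondroitin sulfotransferase, was at 23.6 CPM in the mutant and at 45.1 and 51.8 CPM in the controls (log2 fold change -1.04 ± 0.19, adjusted p = 2.4e-05). Slc26a2, the sulfate transporter of chondrocytes, fell by 1.07 and Papss2, which makes the sulfate donor, by 0.88. The heparan sulfate enzymes Hs3st3a1, Hs3st3b1 and Extl1 fell by 1.25, 1.15 and 1.56. Of these 6 genes DESeq2 called Chst3 and did not call the others, whose adjusted p ranged from 0.053 for Hs3st3b1 to 0.23 for Slc26a2. The chondroitin sulfotransferase Chst11 was at 34.7 CPM against 38.9 and 35.2 CPM.

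Among genes that respond to Wnt through beta-catenin, the members moved in both directions. Of 23 tested, 6 fell and 3 rose, with a median log2 fold change of -0.36. DESeq2 called 3 of them as lower and 1 as higher. Notum, a secreted enzyme that removes the lipid from Wnt ligands (chromosome 11, 120653788 to 120661175), was at 7.43 CPM in the mutant and at 25.9 and 23.5 CPM in the controls (-1.74 ± 0.23, edgeR adjusted p = 3.8e-10). Wif1, a secreted protein that binds Wnts, was at 15.3 CPM against 39.8 and 32.6 CPM (-1.25 ± 0.20). Both passed the rule of size.

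The classical feedback and nuclear genes fell by smaller amounts. Axin2, a scaffold of the beta-catenin destruction complex, was at 23.9 CPM in the mutant and at 36.4 and 44.2 CPM in the controls (log2 fold change -0.76 ± 0.19, edgeR adjusted p = 0.0046). Lef1, a DNA-binding partner of beta-catenin, was at 11.1 CPM against 21.6 and 19.0 CPM (-0.88 ± 0.22), and Tcf7, of the same family, fell by 0.85. DESeq2 called none of these 3, with adjusted p of 0.10, 0.12 and 0.051. Myc fell by 0.79. Nkd1 and Dkk2, which are feedback genes of the pathway too, were at 44.8 CPM against 58.0 and 52.9 CPM and at 17.2 CPM against 22.4 and 23.9 CPM, and neither passed (adjusted p = 0.45 and 0.28).

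Opposite to these, Lgr5, a receptor for R-spondins and itself a Wnt response gene, was at 15.7 CPM in the mutant and at 6.70 and 8.35 CPM in the controls (log2 fold change 1.05 ± 0.24, edgeR adjusted p = 0.0013, DESeq2 adjusted p = 0.11). Sp5, a factor directly induced by beta-catenin, was at 3.12 CPM against 0.898 and 0.680 CPM (1.98 ± 0.49), which DESeq2 did not call (adjusted p = 0.30). Tnfrsf19 rose by 0.75, from 151 and 146 CPM in the controls to 250 CPM.

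The Wnt ligand genes moved in opposite directions. Of 14 tested, 3 rose and 1 fell. Wnt7b, a ligand of the airway epithelium, was at 217.5 CPM in the mutant and at 142.2 and 122.0 CPM in the controls (0.71 ± 0.17, edgeR adjusted p = 0.0028). Wnt4 was at 54.3 CPM against 27.6 and 24.7 CPM (1.05 ± 0.18, adjusted p = 2.6e-06). Wnt2, a ligand of lung and tracheal mesenchyme, was at 24.2 CPM against 8.72 and 10.6 CPM (1.32 ± 0.21, adjusted p = 7.2e-07). Wnt5a, which acts mainly without beta-catenin, fell from 129.5 and 134.1 CPM to 71.8 CPM (-0.88 ± 0.18, adjusted p = 2.0e-04). Per kilobase, Wnt7b was the highest of these 4 in every library, at 44.4 RPKM in the mutant and 29.0 and 24.9 RPKM in the controls.

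Of 15 genes for the secretion and release of Wnt, Sdc4 rose by 0.65, and Wls and Notum fell. Porcn, the enzyme that attaches the lipid to Wnt, was at 8.99 CPM against 8.95 and 9.77 CPM.

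Several receptors and modulators of Wnt were lower. Lgr6, an R-spondin receptor, was at 3.78 CPM in the mutant and at 13.3 and 14.8 CPM in the controls (log2 fold change -1.90 ± 0.28, edgeR adjusted p = 3.2e-08), the reverse of Lgr5. Rspo4, an R-spondin, fell by 1.77, the receptor Fzd9 by 1.56 and Ror1, a receptor for Wnt5a, by 1.25. Ror2, the other Ror receptor, was at 48.0 CPM against 64.9 and 59.6 CPM and did not pass (-0.38 ± 0.18, adjusted p = 0.30). In all, 4 of 23 receptor and R-spondin genes fell and 1 rose, while the other 9 frizzled genes, Lrp5 and Lrp6 did not pass.

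Secreted Wnt inhibitors were split as well. Sfrp1 was at 346 CPM in the mutant and at 214 and 211 CPM in the controls (log2 fold change 0.69 ± 0.18, edgeR adjusted p = 0.0081). Sfrp2 was at 584 CPM against 394 and 278 CPM (0.79 ± 0.20, adjusted p = 0.0043). Dkk3 fell by 0.76, a call that DESeq2 did not make (adjusted p = 0.18). In the Wnt polarity pathway edgeR, DESeq2 and limma-voom called 0 of 16 genes, and 5 were lower and 2 higher at an unadjusted edgeR p under 0.05.

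The BMP ligand genes as a group were lower. Of 12 tested, 5 fell and none rose, with a median log2 fold change of -0.66, and they summed to 399 CPM in the mutant and to 663 and 729 CPM in the controls. Bmp4, the ligand whose loss was studied in the sorted cells of the same series (chromosome 14, 46383520 to 46390669), was at 30.9 CPM in the mutant and at 50.8 and 48.8 CPM in the controls (-0.69 ± 0.19, edgeR adjusted p = 0.011, DESeq2 adjusted p = 0.095). The difference was several times the 2 CPM between the controls but did not reach the rule of size. Gdf5, a ligand of joints and early cartilage, was at 8.62 CPM against 34.8 and 30.6 CPM (-1.93 ± 0.22, adjusted p = 2.9e-13). Bmp6 was at 2.87 CPM against 10.1 and 8.13 CPM (-1.66 ± 0.32), and Gdf10 was at 39.3 CPM against 120.5 and 89.0 CPM (-1.42 ± 0.19). Bmp1, a procollagen-cleaving protease and no true ligand, fell by 0.87. Bmp2, Bmp3, Bmp5 and Bmp7 did not pass, at 7.39, 32.4, 18.7 and 25.9 CPM in the mutant.

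Among genes that respond to BMP, the largest difference was in Msx2, a homeobox gene induced by BMP signalling (chromosome 13, 53466884 to 53473074). It was at 2.13 CPM in the mutant and at 9.92 and 9.40 CPM in the controls (log2 fold change -2.18 ± 0.34, edgeR adjusted p = 1.6e-07). Its relative Msx1 was below 1 CPM in every library. Gata2 was at 4.19 CPM against 9.70 and 10.6 CPM (-1.28 ± 0.29, DESeq2 adjusted p = 0.052). Tbx20, Atoh8 and Smad9 fell by 0.70, 0.78 and 0.60 in edgeR, and neither DESeq2 nor limma-voom called them. The direct targets Id1, Id2, Id3, Smad6 and Smad7 did not pass. Id1 was at 52.6 CPM against 64.4 and 61.8 CPM, and Id3 was at 196 CPM against 280 and 266 CPM (adjusted p = 0.54 and 0.16). The response list therefore stood at 5 lower and none higher of 18 by edgeR, and at 1 by DESeq2.

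BMP antagonists moved both ways. Fst, which encodes follistatin, an inhibitor of activin and some BMPs, was at 16.8 CPM in the mutant and at 6.07 and 6.46 CPM in the controls (log2 fold change 1.42 ± 0.24, edgeR adjusted p = 4.1e-06). Chrdl1, a chordin-like inhibitor, was at 84.0 CPM against 42.4 and 36.4 CPM (1.09 ± 0.17). Nbl1, of the Dan family, rose by 0.91. Nog, which encodes noggin, fell by 1.01 and Bmper, a modulator of BMP, by 0.90. For Nog DESeq2 gave an adjusted p of 0.25. The receptors Bmpr1a and Bmpr2 and the transducers Smad1, Smad5 and Smad4 did not pass.

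**Figure D3:**
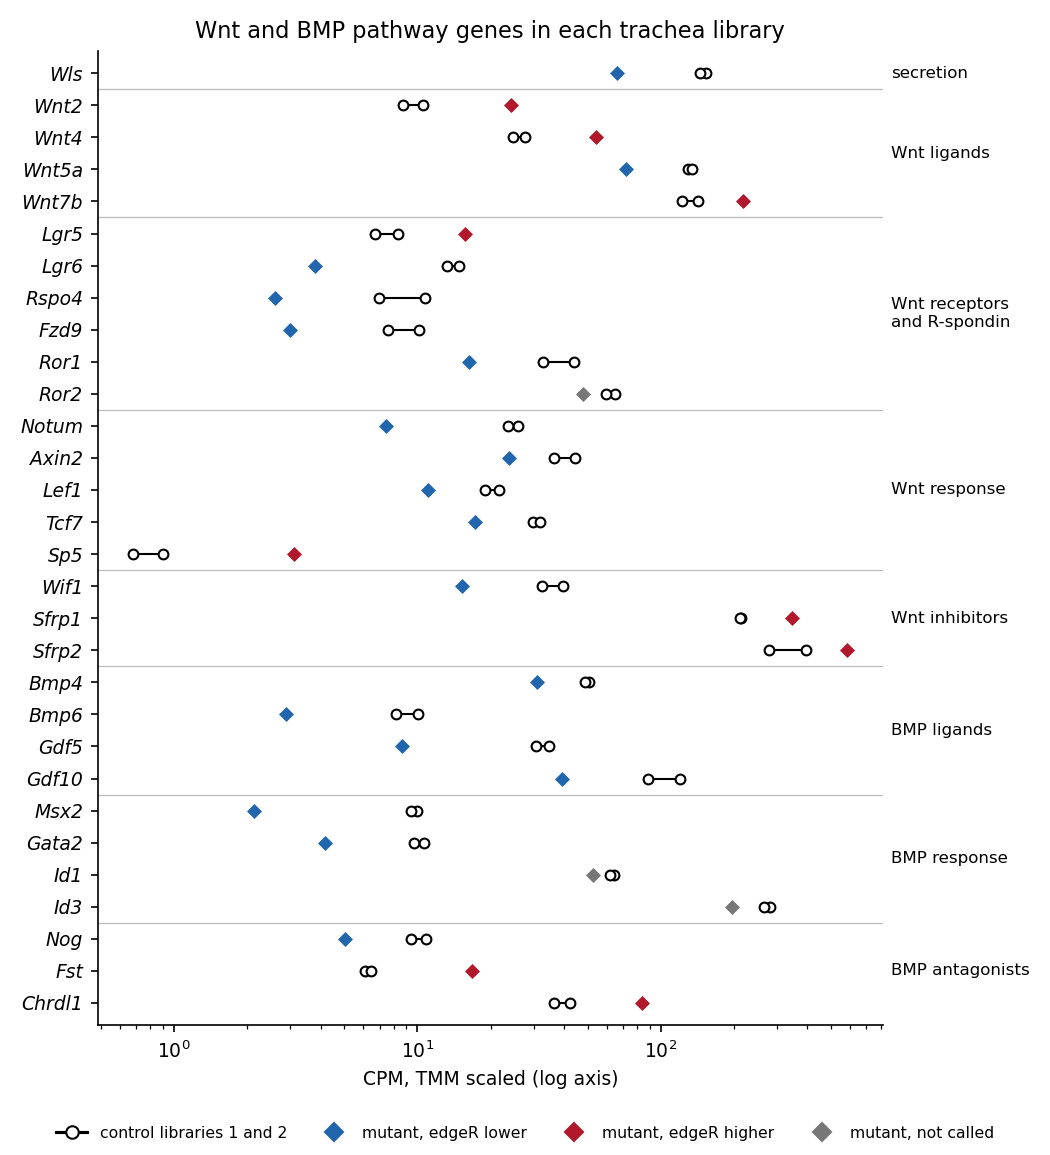
CPM on a log axis for 30 Wnt and BMP genes, with the mutant library as diamonds coloured by the edgeR call and the 2 control libraries as open circles joined by a line. Notum, Lgr6, Gdf5 and Msx2 lie far to the left of both controls, and Wnt4, Lgr5, Sp5, Fst and Chrdl1 lie to the right.

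To see whether the letters bound by the partners of beta-catenin stand close to the start sites, RefSeq promoter windows (GRCm38.p6, 250 bases before to 50 bases after each start) were searched on both strands for CTTTGAT and CTTTGAA, which differ in their last base and so cannot share a match. Of the windows of genes tested by edgeR, 6.06% held a match. The share was 6.74% among genes that fell and 7.03% among genes that rose, close to this background. Among windows of genes that passed both rules it was 10.2% of 108 for lower and 7.95% of 88 for higher genes, with no test made. The windows of Axin2, Lef1, Tcf7, Wif1, Bmp4, Msx2, Tbx4 and Lgr6 held none. Matches stood in 3 of 6 windows of Sox6, in 1 of 2 of Col9a1 and in 1 of 2 of Aldh1a1. Windows of Sp5, which rose, and of Col9a2, which fell, held 1 match each, and they are shown as examples from genes named here, on the plus strand, with the match in capitals. The stretches lie at chr2:70474789-70474855 and chr4:121039358-121039424, upstream of the start in both cases.
Sp5: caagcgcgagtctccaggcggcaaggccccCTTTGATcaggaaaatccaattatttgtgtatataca
Col9a2: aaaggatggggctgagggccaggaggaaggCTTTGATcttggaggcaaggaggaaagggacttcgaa

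Transcription factor genes of the tracheal mesenchyme included some of the clearest differences, in both directions. Of 30 tested, 7 fell and 7 rose, with a median log2 fold change of 0.02. The 4 T-box genes Tbx2, Tbx3, Tbx4 and Tbx5, which pattern limb, lung and trachea, all fell and passed the rule of size. Tbx4 (chromosome 11, 85886422 to 85916097) was at 32.4 CPM in the mutant and at 79.96 and 85.66 CPM in the controls (-1.36 ± 0.19, edgeR adjusted p = 3.8e-09). Its neighbour Tbx2, which starts at 85832551 on the same chromosome, was at 121 CPM against 304 and 278 CPM (-1.27 ± 0.20). Tbx5 (chromosome 5, 119832668 to 119885219) was at 69.0 CPM against 142.1 and 147.8 CPM (-1.08 ± 0.18), and its neighbour Tbx3, from 119670669, was at 57.5 CPM against 120 and 122 CPM (-1.08 ± 0.18). For each of the 4 genes the mutant held less than 50% of either control. Tbx1 and Tbx18 were at 31.9 CPM against 24.82 and 21.96 CPM and at 29.1 CPM against 26.2 and 19.2 CPM, and neither passed.

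Other mesenchymal factors were lower. Osr2 fell by 1.15, while its relative Osr1 was at 222 CPM against 247 and 201 CPM, inside the control range. Hoxa5, whose loss is known to disturb tracheal cartilage, was at 42.2 CPM in the mutant and at 90.0 and 78.8 CPM in the controls (log2 fold change -1.01 ± 0.18, edgeR adjusted p = 1.7e-05). Of 26 tested Hox genes, Hoxa5 and its neighbour in the cluster Hoxa4 fell and none rose, a family count made after the values were seen. Over all genes tested, 2.39% fell and 1.88% rose. Snai1, a zinc finger factor of mesenchyme, was at 33.2 CPM against 90.4 and 90.3 CPM (-1.45 ± 0.19, adjusted p = 2.4e-10), whereas Snai2 was at 22.6 CPM against 24.8 and 27.3 CPM. Eya4 and Alx4 fell by 1.29 and 1.47.

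The Iroquois homeobox genes rose together. Irx3 (chromosome 8, 91798525 to 91802067) was at 57.7 CPM in the mutant and at 18.3 and 14.9 CPM in the controls (log2 fold change 1.79 ± 0.18, edgeR adjusted p = 3.8e-16). Irx5, from the same cluster (92357625 to 92376286), was at 33.5 CPM against 11.7 and 8.72 CPM (1.71 ± 0.20). Irx1 and Irx2, from the cluster on chromosome 13, were at 24.5 CPM against 14.2 and 9.90 CPM and at 33.2 CPM against 14.6 and 15.5 CPM, with log2 fold changes of 1.02 and 1.14. Irx6, of the first cluster, was at 1.64 CPM against 1.09 and 1.79 CPM, and Irx4, of the second, was at 0.575 CPM against 0.824 and 2.13 CPM. Neither of these passed. DESeq2 called the other 3 and not Irx1 (adjusted p = 0.067).

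Forkhead genes moved in both directions: of 28 tested, a family count made after the values were seen, 4 rose (Foxf1, Foxf2 and the epithelial Foxa1 and Foxa2) and 1 fell, Foxc2. Foxf2 (chromosome 13, 31625816 to 31631403) was at 32.9 CPM in the mutant and at 9.13 and 8.57 CPM in the controls (log2 fold change 1.89 ± 0.20, edgeR adjusted p = 2.6e-14). Foxf1 was at 141 CPM against 98.3 and 88.8 CPM (0.59 ± 0.17, DESeq2 adjusted p = 0.099). Foxc2, a factor of cartilage-forming mesenchyme, was at 18.15 CPM against 35.7 and 29.4 CPM (-0.85 ± 0.20, DESeq2 adjusted p = 0.067), while its relative Foxc1 was at 64.6 CPM against 66.1 and 60.1 CPM. Eya1, a co-activator of homeobox factors, was at 42.1 CPM against 14.3 and 14.2 CPM (1.56 ± 0.19), and Sall1, a zinc finger gene, rose by 1.56. In the hedgehog pathway itself, 2 of 15 genes fell and none rose, beside 2.39% and 1.88% of all genes tested. The list as a whole was lower, with a median log2 fold change of -0.42, beside -0.01 over all genes tested. Its members summed to 1183 CPM in the mutant and to 1458 and 1660 CPM in the controls. Gli1, the usual readout of the pathway, was at 73.2 CPM against 97.8 and 144 CPM (-0.73 ± 0.18, DESeq2 adjusted p = 0.13), a range in which the controls differed widely. Boc, a co-receptor, was at 132 CPM against 235 and 266 CPM (-0.92 ± 0.19, adjusted p = 2.2e-04). The receptor gene Ptch1 was at 48.0 CPM against 57.2 and 78.4 CPM and did not pass.

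**Figure D4:**
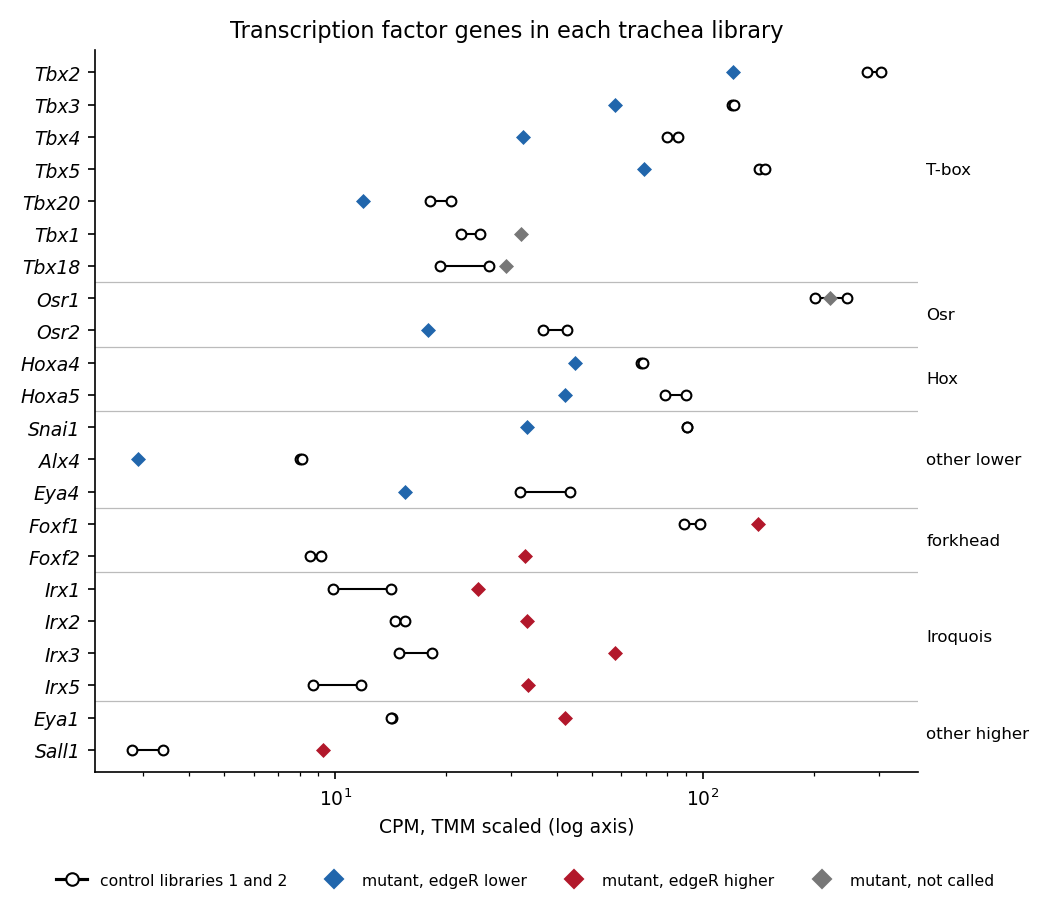
CPM on a log axis for 22 transcription factor genes in the mutant library (diamonds, coloured by the edgeR call) and the 2 control libraries (open circles joined by a line). Tbx2 to Tbx5, Hoxa5 and Snai1 lie left of their controls and Foxf2, the Irx genes and Eya1 lie right of them.

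Genes of retinoic acid metabolism moved in both directions, 3 of 17 falling and 2 rising. Aldh1a1, a retinaldehyde dehydrogenase (chromosome 19, 20492715 to 20643465), was at 57.7 CPM in the mutant and at 10.7 and 11.9 CPM in the controls (log2 fold change 2.34 ± 0.18, edgeR adjusted p = 2.2e-24). Aldh1a7, a close copy of Aldh1a1 with which reads can be shared, was at 79.3 CPM against 20.96 and 25.51 CPM (1.76 ± 0.18), so the 2 genes are uncertain as separate counts. Aldh1a2, the main enzyme of embryonic retinoic acid synthesis, was at 77.3 CPM against 61.4 and 62.5 CPM and did not pass. Of the enzymes that break retinoic acid down, Cyp26a1 rose by 1.95, from 1.72 and 2.81 CPM to 8.87 CPM, and Cyp26b1, present in cartilage-forming mesenchyme, fell by 1.15, from 21.9 and 23.3 CPM to 10.2 CPM. The receptor Rarg and the retinol transporter gene Stra6 fell by 0.65 and 0.81. The receptors Rara and Rarb did not pass.

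In the FGF pathway 3 of 21 genes fell and 1 rose, beside 2.39% and 1.88% of all genes tested. Fgfr3, a receptor of chondrocytes, was at 47.5 CPM in the mutant and at 74.7 and 86.0 CPM in the controls (log2 fold change -0.76 ± 0.18, edgeR adjusted p = 0.0020). Fgfr4 fell by 1.15 and Etv5 by 0.78, and Spry1, an inhibitor of the pathway, rose by 0.63. DESeq2 made none of these last 3 calls (adjusted p of 0.061, 0.089 and 0.35). Elsewhere, Tgfb3, Tgfbi and Ltbp3 of 17 TGF-beta pathway genes and Jag2 and Heyl of 19 Notch pathway genes fell, and none rose, of which DESeq2 called 1 and 0. The ligand gene Fgf10 was at 9.07 CPM against 9.28 and 8.91 CPM.

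Smooth muscle contractile genes were higher by small amounts. Of 26 tested, 7 rose and 2 fell, with a median log2 fold change of 0.32, and the list summed to 6756 CPM in the mutant and to 5308 and 4847 CPM in the controls. None passed the rule of size. Acta2, the smooth muscle actin (chromosome 19, 34241090 to 34255590), was at 1200 CPM in the mutant and at 734.7 and 621.7 CPM in the controls (0.82 ± 0.22, edgeR adjusted p = 0.011). Myocd, the co-activator that drives the smooth muscle programme, was at 60.8 CPM against 32.7 and 36.8 CPM (0.80 ± 0.18, adjusted p = 6.5e-04). Myh11, the smooth muscle myosin, was at 702.9 CPM against 515.1 and 429.4 CPM and did not pass (0.57 ± 0.21, adjusted p = 0.10). Cnn2, Myl9, Tpm2, Lmod1 and Foxf1, which is on this list too, rose by 0.59 to 0.68. Hspb7 and Ldb3, which heart and skeletal muscle also express, fell by 0.74 and 0.90. DESeq2 called 4 of the 7 rises and neither fall.

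Outside that list, 4 membrane or signalling genes that rose, Pde5a, Cckar, Kcnj8 and Abcc9, were picked after their values were seen. Pde5a, the phosphodiesterase that breaks down cyclic GMP, was at 302 CPM in the mutant and at 107 and 119 CPM in the controls (log2 fold change 1.42 ± 0.17, edgeR adjusted p = 1.3e-11). Cckar, the cholecystokinin A receptor, was at 93.6 CPM against 33.1 and 29.1 CPM (1.59 ± 0.17). Kcnj8, the pore of a potassium channel closed by ATP, was at 30.6 CPM against 10.4 and 10.9 CPM (1.51 ± 0.20), and Abcc9, the other subunit of that channel, rose by 0.85 (DESeq2 adjusted p = 0.12). Kcnj8 and Abcc9 belong to the pericyte list, of which 3 of 7 tested genes rose and 2, Pdgfrb and Cspg4, fell; that list summed to 387 CPM in the mutant and to 482 and 514 CPM in the controls. The subunits of the related channel of endocrine cells are Kcnj11 and Abcc8. They were at 1.48 CPM against 3.03 and 2.23 CPM and at 0.657 CPM against 1.98 and 1.73 CPM. Both lay below both controls and did not pass. Of 30 genes of fibroblast matrix 2 rose, Tnc and Mfap5, and 1 fell. The latter was Eln, which encodes elastin and fell from 829 and 594 CPM to 351 CPM (-1.02 ± 0.22).

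By edgeR log2 fold change the 2 largest rises among genes that passed both rules were those of Gdnf and the muscle gene Myh3, at 2.59 and 2.58, and by the difference in log2 CPM Myh3 came first, at 2.58 against 2.54. Gdnf is a secreted factor that attracts enteric and airway nerve precursors (chromosome 15, 7810846 to 7837575). It was at 8.46 CPM in the mutant and at 1.497 and 1.299 CPM in the controls (log2 fold change 2.59 ± 0.36, edgeR adjusted p = 6.0e-09). Its receptor Ret was at 46.5 CPM against 28.7 and 25.6 CPM (0.77 ± 0.18, DESeq2 adjusted p = 0.057), and the co-receptor Gfra1 was at 172 CPM against 156 and 149 CPM. Of 21 neural crest and neuron markers 2 rose, Ret among them, and none fell by edgeR, and DESeq2 called none. Over all genes tested by edgeR, 1.88% rose. Among the other large rises were Fgl2 (2.46), Tnfrsf11b, which encodes the decoy receptor osteoprotegerin (2.15), the tight junction gene Cldn10 (2.08), Trim9 (2.02), Kcnip1 (1.93) and Kif12 (2.10), all from under 4 CPM in the controls.

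The largest falls outside cartilage were mixed in kind. Slc17a7, a vesicular glutamate transporter, was at 0.370 CPM in the mutant and at 5.09 and 3.96 CPM in the controls (log2 fold change -3.60 ± 0.54, edgeR adjusted p = 6.8e-08), and the mutant value rests on few counts. Bcan, a proteoglycan related to aggrecan, fell by 2.24 and Arhgef37 by 2.49. AI506816, a little-described transcript, was at 2.79 CPM against 16.9 and 24.5 CPM. Sned1, a matrix protein, was at 13.8 CPM, but its controls at 45.0 and 123.6 CPM differed widely and DESeq2 did not call it (adjusted p = 0.48). Pcdhb6 lies in a cluster of near-identical protocadherins and its fall by 2.04 is uncertain for that reason. AW549542, which has no position in the annotation used, fell by 2.10 and was not called by DESeq2 (adjusted p = 0.14).

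Markers of other cells moved with these groups, and their part in the results was not tested. Airway epithelium genes were higher: 11 of 30 rose and 2 fell, the median was 0.52, and the list summed to 1997 CPM in the mutant and to 1476 and 1290 CPM in the controls. Epcam, which defines the epithelium, was at 249.2 CPM against 142.2 and 111.1 CPM (log2 fold change 0.97 ± 0.17, edgeR adjusted p = 1.1e-05). Sox2 was at 132.6 CPM against 79.7 and 54.0 CPM (0.98 ± 0.17). Nkx2-1, the factor of respiratory epithelium, was at 91.2 CPM against 66.6 and 56.2 CPM (0.57 ± 0.17), a call made by neither DESeq2 nor limma-voom. In contrast the basal cell keratin Krt5 was at 6.61 CPM against 11.7 and 21.6 CPM (-1.34 ± 0.25), and Krt19 fell by 0.63. DESeq2 called 4 of the 11 rises. The chloride channel gene Cftr, read after the fact, rose from 25.2 and 20.1 CPM to 52.9 CPM. The markers Epcam, Cdh1 and Nkx2-1 were present in all 3 libraries, and none of the 30 was at 0. Markers of epithelium, muscle and cartilage, which the label of whole trachea implies, were present in each library. Heart muscle genes were present in each library too, and thyroid genes differed between libraries, as described below.

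Skeletal muscle genes were higher in the mutant for early muscle fibres. Of 20 tested, 11 rose and 1 fell, and the list summed to 630 CPM in the mutant and to 620 and 491 CPM in the controls. Actc1, which the heart shares and which is the most abundant of them, was at 266 CPM against 405 and 288 CPM. Myh3, the embryonic myosin, was at 92.5 CPM against 15.76 and 15.03 CPM (log2 fold change 2.58 ± 0.18, edgeR adjusted p = 1.0e-29). Myh8 was at 16.3 CPM against 3.93 and 2.97 CPM, and Neb rose by 2.08. Myod1, the factor that defines the lineage, was at 7.80 CPM against 4.27 and 3.09 CPM (1.08 ± 0.32, DESeq2 adjusted p = 0.43), and Myf5 and Myf6 were below 1 CPM. DESeq2 called 5 of the 11 rises. Heart muscle genes were lower: 6 of 10 fell, none rose, and they summed to 407 CPM against 806 and 602 CPM. Myl7 was at 58.4 CPM against 163.2 and 116.8 CPM (-1.26 ± 0.19), and the controls also differed from each other for these genes.

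Endothelial markers summed to 534 CPM in the mutant and to 700 and 773 CPM in the controls, and Cdh5, Erg and Eng fell by 0.61, 0.60 and 0.80 while the other 14 of 17 did not pass. DESeq2 called 1 of them. By edgeR 0 of 16 leukocyte markers and 0 of 11 tested red cell genes were called, with 3 and 2 at an unadjusted p under 0.05; limma-voom called 1 of the red cell genes and DESeq2 none of either. Erythroid genes summed to 11310 CPM in the mutant, between 13170 and 7913 CPM in the controls. Thyroid markers were low, but Pax8 was at 4.23 CPM in the mutant and at 0.337 and 0.0619 CPM in the controls, and Hhex rose by 1.03 (DESeq2 adjusted p = 0.40). Foxe1, too low to be tested, had 14 counts in the mutant and 0 in each control. Tg fell, to 0.575 CPM against 2.10 and 2.04 CPM. The part of thyroid tissue in the mutant library was not tested. The surfactant genes Sftpc and Sftpb of lung buds were below 1 CPM in each library, and of 7 tested genes of that list Sox9 and Etv5 fell. Of 8 tested genes of stratified epithelium Krt5 and Krt14 fell. The third pericyte gene that rose was Rgs5, and DESeq2 made 2 of the 5 pericyte calls. Of 7 mesothelial genes Krt19 fell.

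Cell cycle and ribosome genes gave no calls. Of 25 mitosis genes, 28 DNA replication genes and 47 ribosomal protein genes, edgeR, DESeq2 and limma-voom called 0, with 1, 1 and 0 at an unadjusted edgeR p under 0.05. Mitosis genes summed to 3615 CPM in the mutant and to 3196 and 3491 CPM in the controls. Ribosomal protein genes summed to 53740 CPM against 47400 and 43280 CPM, higher than both controls. Egln3 rose among 27 hypoxia genes, and Btg2 rose among 23 immediate early genes and 15 p53 targets, which share it.

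Sex-linked genes differed between libraries. The Y-linked gene Ddx3y was at 5.26 CPM in the mutant and at 16.7 and 6.15 CPM in the controls, and Xist, transcribed from the inactive X, was at 1251 CPM in the mutant and at 659 and 1431 CPM in the controls. Every library held both kinds of transcript, and so RNA of both sexes. Control 1 stood apart from the other 2 libraries in these genes. Of 5 sex-linked genes 3 were lower by edgeR and none by DESeq2: Ddx3y by a log2 fold change of -1.11, Eif2s3y by -1.21 and Kdm5d by -1.51. The part of sex in other results was not tested.

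**Figure D5:**
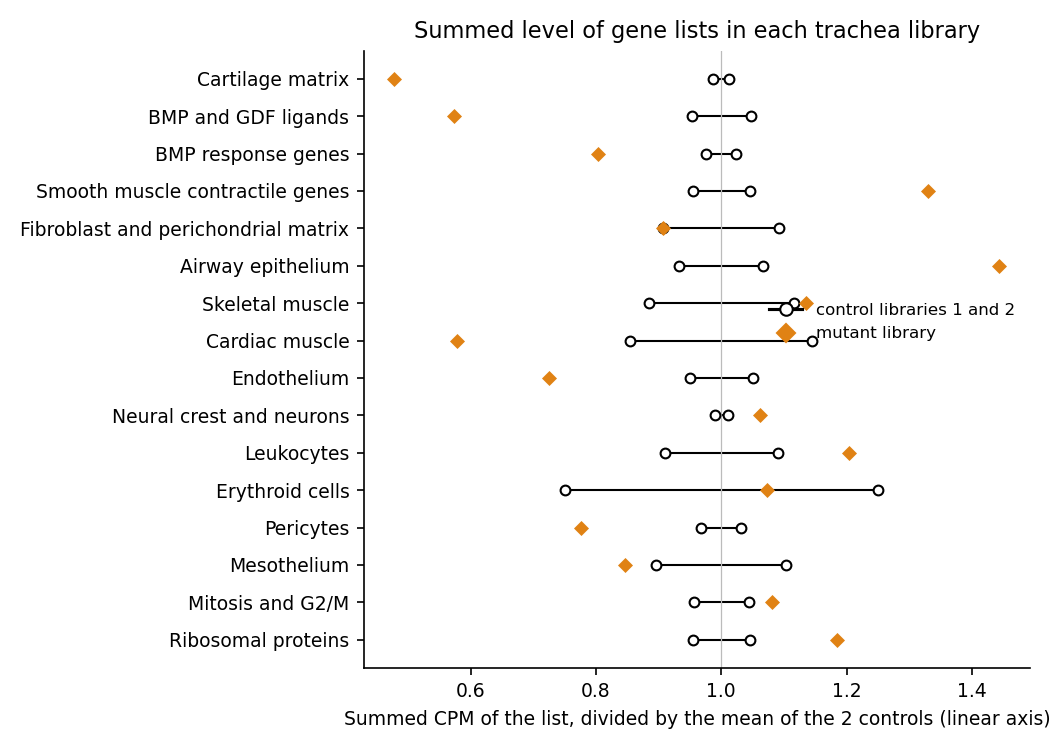
The summed CPM of 16 gene lists in each library, divided by the mean of the 2 controls, on a linear axis, with the mutant as diamonds and the controls as open circles joined by a line. Cartilage matrix, BMP ligands, heart muscle and endothelium lie below both controls, and airway epithelium, smooth muscle and ribosomal protein genes lie above both.

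The sorted Epcam-negative, GFP-negative cells of the same series share no sample with the tracheas, and their values are set beside those above with no test. Sox9 was at 161 and 469 CPM in the 2 Bmp4 mutant libraries and at 1949, 1092 and 734 CPM in the 3 controls. Msx2 was at 2.91 and 6.79 CPM against 61.2, 58.3 and 46.4 CPM, and Gdf5 was at 31.7 and 67.1 CPM against 225, 199.6 and 164.7 CPM. Tbx4 overlapped between the groups, at 44.1 and 87.7 CPM against 202, 130 and 73.3 CPM. So did Acan, at 9.82 and 19.4 CPM against 22.9, 8.55 and 1.52 CPM, and Col11a2, Matn4, Gdf10, Notum and Wif1. Lgr6 and Bmp6, lower in the Wls mutant, were higher in both Bmp4 mutants than in all controls, as were 21.2% of genes above the floor. That share was larger for low genes such as these 2, as it was 6.78% among genes with a mean of at least 20 CPM. Lgr6 was at 13.6 and 11.55 CPM against 1.96, 2.19 and 2.60 CPM. Of the 13199 genes above the floor, both Bmp4 mutants lay below all controls for 41.7% and above all for 21.2%. Of the 124 genes lower here, 35.5% were below, near that background. Of the 102 genes higher here, 69.6% were above. Only 15 of these 102 reached a mean of 20 CPM in the sorted cells. For genes below that mean the background above all controls is larger than 21.2%, so 69.6% and 21.2% are not a like comparison. With a mean of at least 20 CPM in the sorted cells, a limit set after the first count, the background was 57.8% below and 6.78% above, with 55.7% of 61 lower genes below and 9 of 15 higher genes above. The sorted Bmp4 mutants held more counts of many genes that were low in the sorted controls. Epcam was at 5.38 and 6.79 CPM against 2.19, 0.331 and 1.39 CPM. Chst4, with 0 counts in every trachea library, was at 7.34 and 2.49 CPM against 0, 0 and 0 CPM. Not all low genes did so, as Nkx2-5 was at 0.291 and 0.113 CPM against 3.23, 0.641 and 5.70 CPM. The part of this in the last counts was not tested.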

How the data were processed

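The authors deposited raw read counts per gene for 3 whole-trachea libraries (embryonic day 13.5, total RNA by Trizol, Ovation RNA-Seq System v2 amplification and Nextera XT libraries, per the labels' protocols). Bowtie2, Cufflinks, DESeq and mm10 appear in the submitters' processing notes. No source used here gives the counting program, the annotation or the use of strand, so overlapping or antisense genes and near-identical copies cannot be told apart. Counts were scaled by TMM. edgeR 4.0.16 (filterByExpr, quasi-likelihood F test, Benjamini-Hochberg adjusted p under 0.05 over 15815 genes, 1 residual degree of freedom, common biological coefficient of variation 0.122) compared 1 mutant with 2 control libraries; SE is the log2 fold change divided by the square root of F. The rule of size used log2 CPM with a prior count of 2 and a floor of 1. Positions and exon lengths (for RPKM) came from GENCODE M21 by symbol; 1404 genes had none. On simulated counts for this comparison edgeR recovered 66 of 100 genes changed 2-fold and 96 of 98 changed 4-fold, with 13 of 15485 unchanged genes called. The rule of size recovered 33 of 100 and 88 of 100 and called 1 of 13035. All 3 simulated libraries varied alike, with a coefficient of 0.12 for every gene and no difference in preparation. The counts of false calls therefore cannot speak to a mutant library that varied more or was prepared differently. DESeq2 1.42.0, limma 3.58.1 and other scalings and filters were alternatives. Totals were 24596836 to 31399982 counts; counting error only limits genes of a few CPM.

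Named genes were Wls, Shh and 21 genes fixed by name; list members that passed both rules, at most 6 a list by size; and the 12 largest falls and rises that passed both, without predicted genes. Other genes were chosen after their values were seen. Lists and members were chosen with earlier results of these data known. The lists held 5 symbols matched through RefSeq synonyms. Some genes that met the naming rule are not reported here.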

Additional observations from a re-analysis of the deposited data

How the results depend on the processing

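No paired analysis was possible because the groups compared share fewer than 2 replicate numbers, the mutant having 1 library. With DESeq2 155 genes were lower and 104 higher, against 378 and 298 in edgeR; 152 and 104 of them were the same genes. limma-voom called 280 and 257, and RLE scaling, upper quartile scaling, no filter or a filter of 1 CPM in all libraries gave 324 to 386 lower and 277 to 323 higher genes. By the rule of size (157 lower, 118 higher), a floor of 3 gave 76 and 40 genes, a floor of -1 gave 276 and 219, and a size of 0.6 gave 477 and 391. DESeq2 called 1 lower BMP response gene, 3 lower Wnt beta-catenin response genes, 4 higher smooth muscle genes, 4 higher epithelial genes and 5 higher skeletal muscle genes, against 5, 6, 7, 11 and 11; for the BMP response genes limma-voom called 2 and upper quartile scaling 3. Of the 184 genes named, DESeq2 kept the side of the threshold for 117, limma-voom for 164, upper quartile scaling for 174, no filter for 179 and RLE scaling for 184; no called gene changed direction. Without control replicate 1 or 2 the log2 difference of each of the 184 genes from the other control moved by less than 1 SD of the controls, which the use of 2 controls ensures by construction; no counts can be given, since no residual degrees of freedom remain. The 1 mutant library and low counts limit genes of a few CPM most.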

Other observations

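Further genes were picked after their values were seen; all but Tnc and Chrng, which edgeR alone called, passed both rules. Scube1 and Scube3, secreted proteins that aid hedgehog and BMP ligands, were at 80.4 CPM in the mutant and at 176 and 182 CPM in the controls and at 14.7 CPM against 33.8 and 44.5 CPM, with log2 fold changes of -1.16 and -1.42 in edgeR. Sim2, a helix-loop-helix factor, was at 13.3 CPM against 34.2 and 36.3 CPM (-1.41). The heart genes Mybpc3 and Ankrd1 fell by 1.68 and 1.75. Tnc, the matrix protein tenascin C, rose from 143 and 153 CPM to 252 CPM (0.76). Mfap5, a microfibril gene, rose from 2.47 and 2.69 CPM to 8.62 CPM (1.73). Chrng, the fetal subunit of the muscle acetylcholine receptor, was at 3.49 CPM against 0.561 and 0.433 CPM.

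Cwc22, a splicing factor gene on chromosome 2, was at 193 CPM in the mutant and at 64.8 and 60.2 CPM in the controls (log2 fold change 1.62, edgeR adjusted p = 1.7e-15). Reads of near-identical copies of this gene could be split or shared, so its count is uncertain.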
